A study of Homo sapiens with 35 samples.

Results

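This account concerns 9 genes that were silent in THP-1 cells carrying a control guide RNA and were read in all THP-1 libraries labelled as lacking both SUV39H1 and SUV39H2. They are CST7, CTSF, S100A12, TRPV6, HDC, MIR124-1HG, CTD-2547L24.3, RP11-1134I14.2 and RP3-412A9.17. Silent meant at most 5 reads summed over the 3 control libraries, and switched on meant at least 1 CPM, the read count scaled to the library's total, in each of the 3 double knockout libraries. Of 59428 rows in the count table, 56453 were autosomal, 35043 of those were silent in the control, and the 9 genes are 0.0257% of the silent rows. The genes were chosen by their levels in these 6 libraries, so those levels are given as a description with no test.

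The samples were poly(A) RNA libraries from 4 established human myeloid lines. THP-1 and U937 are monocytic lines, and MOLM-13 and OCI-AML-3 come from acute myeloid leukaemia. THP-1 and untreated U937 each had 3 libraries labelled double knockout (DKO, guides against SUV39H1 and SUV39H2), 3 labelled single knockout (SKO, guide against SUV39H1) and 3 with a control guide (sgControl). U937 treated with TPA, at a dose and time that the labels do not give, had the same 3 groups of 3. MOLM-13 had 2 SKO and 2 sgControl libraries, and OCI-AML-3 had 2 DKO and 2 sgControl libraries. The library names put THP-1 SKO and sgControl each at clone 1, put untreated U937 DKO at clone 3 and name no clone for THP-1 DKO, so libraries of 1 group may be repeats of 1 clone. The labels do not say whether replicates were separate cultures. The p-values below therefore reflect library-to-library spread only, and that spread could be technical.

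SUV39H1 and SUV39H2 are enzymes that place trimethyl marks on lysine 9 of histone H3. That mark is bound by HP1 proteins and is a feature of compacted, transcriptionally silent chromatin, above all at repeats. In the monocytic lineage, genes of other cell types and of other stages of maturation are kept silent by several such marks and by DNA methylation.

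Counted reads per library were 31985767 to 38678090 in THP-1 DKO, 56881318 to 61178704 in THP-1 SKO and 51181859 to 60222776 in THP-1 sgControl. SUV39H1 RNA in THP-1 went against a simple loss. It stood at 63.2, 61.9 and 62.0 CPM in the libraries labelled DKO and at 92.3, 86.2 and 88.3 CPM in those labelled SKO, against 32.4, 34.2 and 29.9 CPM in sgControl. SUV39H2 was at 16.3, 15.6 and 14.8 CPM in DKO and 19.6, 18.5 and 19.04 CPM in SKO, against 28.3, 28.3 and 30.5 CPM in sgControl. A guide can disrupt a protein without removing its RNA, so these counts do not check the SUV39H1 label, and the THP-1 groups are called here by their labels. Untreated U937 DKO and SKO and TPA-treated U937 SKO also had more SUV39H1 RNA than their controls, whereas TPA-treated U937 DKO, MOLM-13 SKO and OCI-AML-3 DKO had less. In THP-1, the library names carry the number 240724 in DKO and 240110 in SKO and sgControl. What this number marks is not known, and any batch it marks cannot be told apart from the DKO label.

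Of 10 monocytic markers, 9 were at 1 CPM or more in each THP-1 group, and they summed to 1939 to 1949 CPM in libraries labelled DKO, 1305 to 1338 CPM in SKO and 1187 to 1194 CPM in sgControl. Among markers of other cells, 3 of 6 megakaryocyte genes (ITGA2B, GP9 and GP1BA) passed 1 CPM in DKO and none in sgControl, with sums of 6.72 to 9.51 CPM against 1.53 to 2.38 CPM, while PF4 was at 0 reads in both. VWF of the endothelial list, PDGFRB of the stromal list and ELAVL4 of the neural list were also on in DKO and not in sgControl, and KRT8 of the epithelial list was on in sgControl and not in DKO. In the other direction, 8 T and NK cell markers summed to 0.827 to 1.25 CPM in DKO against 11.6 to 13.8 CPM in sgControl, where GNLY alone was on, and 6 B cell markers summed to 7.07 to 8.76 CPM in DKO against 18.5 to 20.4 CPM in sgControl. In SKO the megakaryocyte sum was 6.11 to 7.98 CPM, the T and NK sum 2.04 to 2.39 CPM and the B cell sum 6.68 to 7.77 CPM. PDGFRB was on in SKO too, and VWF, ELAVL4 and KRT8 were not. The megakaryocyte and B cell sums in SKO thus overlapped those in DKO. Of the 9 genes, only TRPV6 had DKO and SKO libraries that overlapped. The part of these marker shifts in the results was not tested. In bulk RNA, fewer cells with a transcript and less transcript per cell cannot be told apart.

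The genes were thinly spread over the genome, on 8 chromosomes. None lay within 100 kb, 500 kb or 1 Mb of another, so the share with another member inside 500 kb was 0%. MIR124-1HG and RP11-1134I14.2 share chromosome 8 and lie 37.2 Mb apart.

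The 9 genes held 5 protein-coding genes, or 55.6%, against 11.1% of the silent autosomal rows by RefSeq gene type. MIR124-1HG is a long noncoding RNA in RefSeq. The other 3 carry clone-based names without a RefSeq entry, a class that made up 33.3% of the genes and 42.1% of silent rows. Their median exon length was 3895 bases, against 607 bases for silent rows, and a longer transcript collects more reads at the same abundance. Of 10 gene lists checked, 1 had a member: TRPV6 was the only switched-on gene among 79 silent genes of 217 in the list of ion channel and synapse genes. No germline, retrovirus-derived, protocadherin, interferon-stimulated, cytokine, developmental transcription factor, adhesion or numbered zinc finger gene was among the 9. Those lists held from 9 silent genes (interferon-stimulated) to 101 (developmental transcription factors), and the heterochromatin list held 0. With 0.0257% of silent rows switched on, a member was unlikely in any list of that size. The absence is therefore not informative.

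Promoters of 4 of the 9 genes were matched in a RefSeq table on GRCh38.p14, which gives 250 bases before and 50 bases after each start. They are printed because the genes, which came on in the same libraries, differ widely in CpG content. All lie on the reverse strand and read 5′ to 3′, with each CpG in capitals. Their intervals are chr11:66568557-66568856 for CTSF, chr15:50265677-50265976 for HDC, chr7:142885696-142885995 for TRPV6 and chr1:153375572-153375871 for S100A12.
CTSF: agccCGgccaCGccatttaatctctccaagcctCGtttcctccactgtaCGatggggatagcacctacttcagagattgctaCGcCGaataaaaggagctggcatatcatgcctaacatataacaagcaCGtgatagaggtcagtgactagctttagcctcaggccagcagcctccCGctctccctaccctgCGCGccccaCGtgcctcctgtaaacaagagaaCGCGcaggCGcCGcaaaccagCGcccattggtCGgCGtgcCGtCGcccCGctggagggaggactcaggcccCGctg
HDC: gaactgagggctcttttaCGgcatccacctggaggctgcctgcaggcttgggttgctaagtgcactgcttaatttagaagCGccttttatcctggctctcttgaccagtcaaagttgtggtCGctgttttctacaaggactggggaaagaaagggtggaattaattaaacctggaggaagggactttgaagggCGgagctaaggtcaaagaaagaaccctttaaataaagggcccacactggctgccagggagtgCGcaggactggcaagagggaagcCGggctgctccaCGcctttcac
TRPV6: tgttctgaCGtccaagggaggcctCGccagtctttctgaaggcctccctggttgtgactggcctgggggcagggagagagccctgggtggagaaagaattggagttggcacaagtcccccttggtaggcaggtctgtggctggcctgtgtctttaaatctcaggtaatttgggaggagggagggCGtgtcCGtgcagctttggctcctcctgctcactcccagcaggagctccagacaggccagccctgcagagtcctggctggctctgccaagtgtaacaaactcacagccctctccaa
S100A12: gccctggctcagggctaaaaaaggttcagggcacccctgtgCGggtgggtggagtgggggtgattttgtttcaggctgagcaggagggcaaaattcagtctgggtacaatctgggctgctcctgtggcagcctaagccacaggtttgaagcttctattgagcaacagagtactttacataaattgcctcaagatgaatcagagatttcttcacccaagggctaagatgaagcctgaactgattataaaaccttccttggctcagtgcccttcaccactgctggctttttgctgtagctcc

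CTSF had 22 CpG in its 300 bases, with an observed over expected ratio of 0.854. HDC had 7 CpG, TRPV6 had 4 and S100A12 had 1, a ratio of 0.0530. The median was 5 CpG over 5832 promoters of other silent genes, 25 over 13465 promoters of autosomal genes that were on in THP-1 sgControl and 14 over all 35116 promoters. CTSF thus sat near the promoters of active genes in CpG count and S100A12 below the median of silent ones. The motifs searched on both strands were the TATA box, spelled TATAAA, the CCAAT box, the GC box, spelled GGGCGG, a core known for the myeloid factor PU.1, spelled GAGGAA, and a C/EBP motif, spelled TTGCNNAA. The S100A12 window held the TATA box letters, as do 11.5% of all promoters and 18.2% of those of other silent genes, and the C/EBP letters, as do 10.5% and 12.3%. The GC box stood in the HDC window, in 45.0% of all promoters and in 28.1% of the silent ones. The PU.1 core stood in the windows of HDC and CTSF, in 27.9% of all promoters and in 28.5% of the silent ones. The CCAAT box stood in the windows of CTSF and TRPV6, in 34.6% of all promoters and in 36.1% of the silent ones. No motif was common to all 4 windows.

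CST7 encodes cystatin F, an inhibitor of cysteine cathepsins that immune cells make, and was the highest of the 9 in CPM. It lies at chr20:24949269-24959928 on the forward strand of hg38. Libraries labelled DKO had 12.9, 12.4 and 14.3 CPM and those labelled SKO 3.06, 2.95 and 2.78 CPM, against 0 reads in each sgControl library. The DKO libraries were all above the SKO libraries, whose mean was 22.2% of the DKO mean. Against a floor of 3 reads over the 3 sgControl libraries, 0.0178 CPM, the DKO level was 745-fold higher. The lower limit of the counting interval for the DKO to sgControl ratio was 605. This floor and the counting intervals here and below cover counting error only and take each read as independent.

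CTSF encodes cathepsin F, a lysosomal cysteine protease, and lies at chr11:66563464-66568879 on the reverse strand. It had 9.77, 7.69 and 7.90 CPM in libraries labelled DKO and 4.11, 4.05 and 3.89 CPM in SKO, against 0 reads in each sgControl library. Again the DKO libraries stood above all SKO libraries, with the SKO mean at 47.5% of the DKO mean. The DKO level was 479-fold higher than the control floor, and the lower limit from counting was 389. CST7 and CTSF were the only 2 of the 9 at 1 CPM or more in every SKO library. By exon length, CST7 reached 14.8 and CTSF 1.99 CPM per kilobase of exon (RPKM) in DKO.

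Both genes have relatives that were already on. A list of 11 cysteine cathepsin genes was made after the values had been seen. Of these, 10 were on in THP-1 DKO and 9 in sgControl, where CTSF was the only silent member. The difference was CTSF itself, fixed by the rule. The level of CTSF in DKO was low beside that of cathepsin S, CTSS, at 42.9 RPKM in DKO and 51.5 RPKM in sgControl, and of cathepsin B, CTSB, at 26.4 RPKM in DKO and 22.7 RPKM in sgControl. Among 9 cystatin genes, 4 were on in DKO and 3 in sgControl, and the difference was CST7, likewise fixed by the rule. CSTA, CSTB and CST3 were on in both groups, and 5 of the others were silent in both groups: CST1, CST2, CST4, CST5 and CST6.

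S100A12 encodes calgranulin C, a calcium-binding protein of neutrophils and monocytes, and lies at chr1:153373711-153375621 on the reverse strand, with the CpG-poor promoter printed above. It had 1.29, 1.06 and 1.64 CPM in libraries labelled DKO and 0.457, 0.863 and 0.458 CPM in SKO, against 2, 0 and 0 reads in the sgControl libraries. No DKO library overlapped an SKO library. The DKO to sgControl ratio was 113, with a 95% interval from counting of 30.7 to 942. The S100A12 count was even in every library, so reads may have been counted in pairs. The interval would then be too narrow. Per length, S100A12 had 2.74 RPKM in DKO, far below its neighbours S100A8 at 23.8 RPKM and S100A9 at 207 RPKM.

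TRPV6 encodes a calcium-selective channel best known from epithelia that take up calcium, and lies at chr7:142871208-142885745 on the reverse strand. EPHB6 lies 0.114 kb downstream on the opposite strand, and reads were counted without strand. Reads running on from EPHB6 therefore cannot be told apart from those of TRPV6. Libraries labelled DKO had 1.53, 1.13 and 1.64 CPM and those labelled SKO 0.809, 1.28 and 1.06 CPM, against 0, 2 and 1 reads in sgControl. It was the only one of the 9 genes whose DKO and SKO libraries overlapped, with an SKO mean at 73.5% of the DKO mean. Per length, TRPV6 had 0.120 RPKM in DKO. The DKO to sgControl ratio was 81.1 (95% counting interval 27.2 to 398). None of 6 epithelial markers reached 1 CPM in every DKO library, and their sum was 1.03 to 1.16 CPM in DKO against 1.76 to 2.91 CPM in sgControl. Of 6 TRPV genes, also listed after the values had been seen, 4 were on in DKO and 1 in sgControl, TRPV2. TRPV6 was among those added, as the rule fixed. The others added were TRPV1, at a mean of 2.28 CPM in DKO and 0.511 CPM in sgControl, and TRPV3. TRPV3 averaged 1.48 CPM in DKO and 0.854 CPM in sgControl, near the limit of 1 CPM. TRPV5, the closest relative of TRPV6, averaged 0.294 ± 0.0900 CPM in DKO and 0.437 ± 0.228 CPM in SKO, against 0.0674 ± 0.0585 CPM in sgControl (SD, n = 3 each).

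HDC encodes histidine decarboxylase, the enzyme that makes histamine, known for its expression in mast cells and basophils. It lies at chr15:50241947-50265965 on the reverse strand. Libraries labelled DKO had 1.4996, 1.91 and 2.37 CPM and those labelled SKO 0.193, 0.116 and 0.0163 CPM, against 2, 0 and 1 reads in sgControl. The DKO libraries stood apart from all others, whereas SKO overlapped sgControl, the only such case among the 9 genes, and the SKO mean was 5.64% of the DKO mean. The DKO to sgControl ratio was 108 (95% counting interval 36.3 to 526).

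The mast cell and eosinophil marker list did not come on with HDC. None of its 5 genes reached 1 CPM in every library of any THP-1 group, CLC was at 0 reads in all, and the list summed to 0.761 to 1.94 CPM in DKO against 0.435 to 0.625 CPM in sgControl. Of 8 genes for making, storing, clearing and sensing histamine, listed after the values had been seen, 5 were on in DKO and 4 in sgControl. The difference was HDC itself, fixed by the rule. The histamine receptor gene HRH2 averaged 79.7 ± 2.55 CPM in DKO and 30.1 ± 0.668 CPM in sgControl, and the histamine-clearing enzyme gene HNMT 100 ± 3.95 CPM in DKO and 80.2 ± 2.96 CPM in sgControl (SD, n = 3 each). AOC1, the other clearing enzyme gene, averaged 106 ± 3.03 CPM in DKO and 135 ± 5.99 CPM in sgControl, and the storage gene SLC18A2 0.0467 ± 0.0411 CPM in DKO and 0.235 ± 0.0727 CPM in sgControl. For these 4 genes the DKO and sgControl libraries did not overlap, in either direction. That is common: of 13637 autosomal rows averaging at least 1 CPM in a THP-1 group, 6408 had DKO wholly above and 4323 wholly below. SLC18A2 averaged under 1 CPM in each THP-1 group and is not among those rows. Nothing particular to histamine genes is read from the lack of overlap. The receptor genes HRH1, at 9.32 ± 0.632 CPM in DKO and 10.2 ± 0.307 CPM in sgControl, and HRH4, at 0.681 ± 0.254 CPM in DKO and 0.184 ± 0.231 CPM in sgControl, overlapped, and HRH3 was at 0 reads in both groups.

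MIR124-1HG is the host transcript of a microRNA known from neurons, and the poly(A) libraries measure the host RNA and not the mature microRNA. It lies at chr8:9899871-9906678 on the reverse strand. It had 2.74, 1.97 and 1.89 CPM in libraries labelled DKO and 0.141, 0.0664 and 0.196 CPM in SKO, against 0 reads in each sgControl library. The 3 groups did not overlap, and the SKO mean was 6.11% of the DKO mean. The DKO level was 125-fold above the control floor, and the lower limit from counting was 101. Of 6 neural markers, 1, ELAVL4, was on in DKO and none in sgControl, and they summed to 2.69 to 4.602 CPM in DKO against 0.782 to 1.29 CPM in sgControl. The part of these shifts was not tested.

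CTD-2547L24.3 is a row at chr14:91242759-91252211 on the forward strand that shares its coordinates with AL135818.1, a processed transcript in GENCODE 29. It had 2.64, 2.13 and 2.85 CPM in libraries labelled DKO and 0.316, 0.232 and 0.327 CPM in SKO, against 0, 0 and 4 reads in sgControl. The groups did not overlap, and the DKO to sgControl ratio was 108 (95% counting interval 41.6 to 398). Reads were counted without strand, so the strand of the reads in this row is not known.

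RP11-1134I14.2 spans chr8:47089572-47198861 on the reverse strand, at the coordinates of AC120036.1, an unprocessed pseudogene in GENCODE 29, so its reads may come from near-identical copies and are uncertain. Libraries labelled DKO had 1.29, 1.81 and 1.27 CPM and those labelled SKO 0.352, 0.349 and 0.163 CPM, against 0, 2 and 1 reads in sgControl. The DKO to sgControl ratio was 81.1 (95% counting interval 27.2 to 398). RP11-1134I14.8, which overlaps it on the opposite strand, averaged 4.16 CPM in DKO and 4.002 CPM in SKO, against 2.52 CPM in sgControl.

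RP3-412A9.17 is a single exon of 16698 bases at chr22:31051630-31068327 on the forward strand, at the coordinates of AC005005.4, a sense overlapping transcript in GENCODE 29. It overlaps SMTN, which encodes smoothelin, on the same strand. In the shared stretch, reads of unspliced SMTN RNA cannot be told apart from reads of RP3-412A9.17. The row of RP3-412A9.17 had 1.19, 1.22 and 1.16 CPM in libraries labelled DKO and 0.281, 0.465 and 0.114 CPM in SKO. It had 0 reads in each sgControl library, and the groups did not overlap. The DKO level was 66.8-fold above the control floor, and the lower limit from counting was 53.5. SMTN ran the other way, with a mean of 23.04 CPM in DKO against 29.4 CPM in sgControl. At 0.0712 RPKM in DKO, RP3-412A9.17 was the lowest of the 9 per length.

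**Figure D1:**
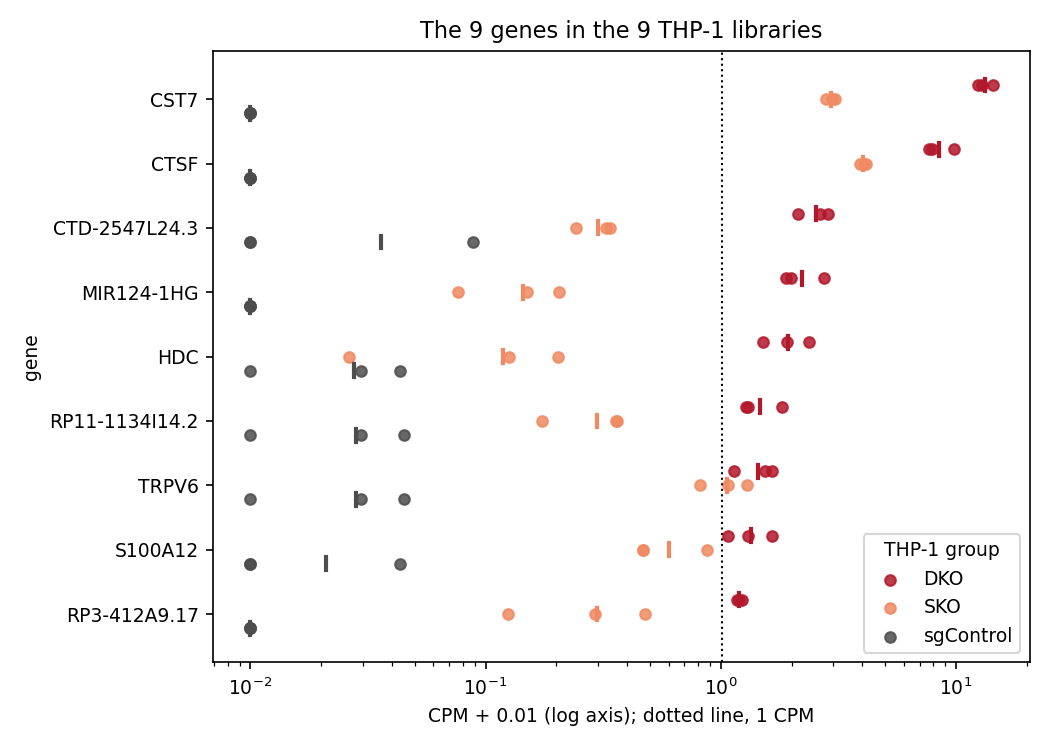
Levels of the 9 genes in each THP-1 library, as CPM + 0.01 on a log axis, with DKO above SKO and sgControl for each gene, points for libraries (equal values coincide) and short bars for group means. DKO lies right of the dotted line at 1 CPM for all genes by the rule, SKO lies between DKO and sgControl in mean for all 9, and SKO points meet DKO points for TRPV6 and sgControl points for HDC.

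All 9 genes had DKO libraries that did not overlap sgControl, which the choice of genes fixed. In the fit over all 18585 tested THP-1 genes, 31.9% were called higher in DKO than in sgControl and 33.7% lower, and nothing is read from the genes' own calls there. Among DKO libraries, the highest was 1.05 times the lowest for RP3-412A9.17 and 1.58 times for HDC, with the other 7 genes between. Of 46 heterochromatin machinery genes tested in the same fit, 10 were called higher in DKO and 22 lower by edgeR at an adjusted p under 0.05.

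The genes just inside the level limit were S100A12, TRPV6 and RP3-412A9.17, whose lowest DKO libraries had 1.06, 1.13 and 1.16 CPM. Just outside it were ADAM23 at 0.875 CPM, AOX2P at 0.827 CPM and PRKXP1 at 0.750 CPM. On the side of the control, CTD-2547L24.3 had 4 reads, and HSPA7, SULT1B1 and RP11-33A14.1 were among 5 rows just outside with 6 reads.

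The same silent rows gave fewer genes in SKO at every level examined. At 0.1 CPM in all 3 libraries, 444 rows were reached in DKO and 65 in SKO. That level asks for fewer reads in DKO, where 5 reads are 0.129 to 0.156 CPM, against 0.0817 to 0.0879 CPM in SKO. The control libraries that defined silence also share the number in their names, 240110, with SKO and not with DKO. The part of depth, and of any batch that this number marks, in the gap was not tested. The numbers were 26 in DKO and 6 in SKO at 0.5 CPM, and 9 in DKO and 3 in SKO at 1 CPM. The 3 in SKO were CST7, CTSF and UNC5C-AS1, an antisense transcript row. By the reverse rule, 1 gene on in sgControl was silent in DKO (RP11-67H24.2) and 3 in SKO (ADAMTS9, IFI27 and RGL3).

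**Figure D2:**
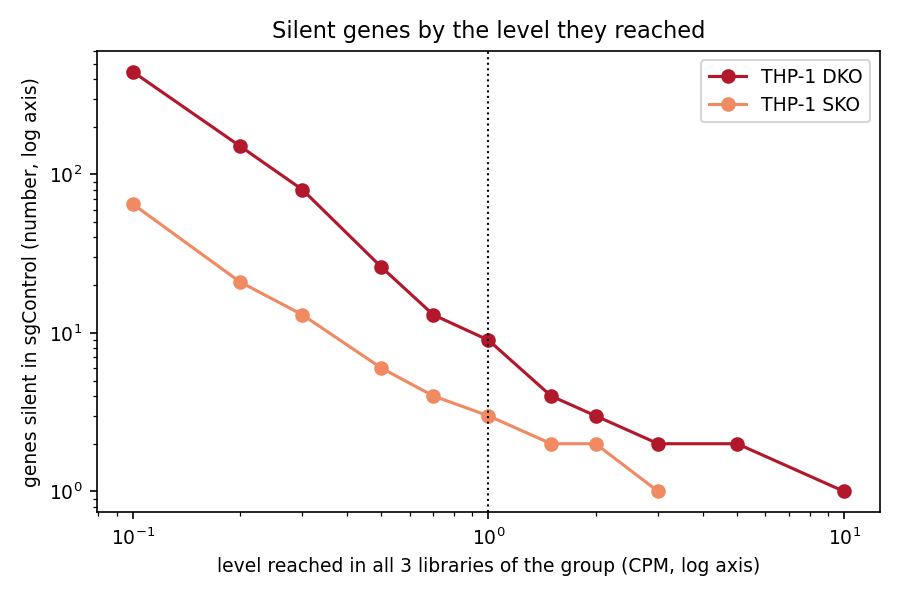
Number of autosomal rows silent in THP-1 sgControl (log axis) that reached a given level in CPM (log axis) in all 3 libraries of THP-1 DKO or THP-1 SKO. The DKO line is above the SKO line throughout, with 9 against 3 rows at the dotted line of 1 CPM.

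Neighbours of the 9 genes were compared with all genes of like level. Within 150 kb 35 autosomal rows averaging at least 1 CPM in a THP-1 group were compared, of which 17, or 48.6%, had all DKO libraries above all sgControl libraries, against 47.0% of 13637 such rows over the genome. A rise of at least 2-fold was seen in 25.7% of neighbours and in 16.9% of all. The median log2 ratio of DKO to sgControl, with 0.1 CPM added, was 0.32 for neighbours and 0.13 for all rows. No test was run on these shares.

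Among these neighbours, the largest rises were beside S100A12. S100A9, which encodes the partner of S100A8 in calprotectin, had 116, 122 and 119 CPM in DKO and 39.7, 37.2 and 39.5 CPM in SKO, against 4.48, 4.11 and 4.18 CPM in sgControl. S100A8 had 21.4, 21.3 and 20.8 CPM in DKO and 6.01, 7.57 and 7.49 CPM in SKO, against 1.69, 1.01 and 0.860 CPM in sgControl. S100A9 lies 12.7 kb and S100A8 14.4 kb from S100A12. In sgControl S100A9 was on, while S100A8 missed the limit of 1 CPM in 1 library and was not silent. Other rises over 2 on that log2 scale were found at ACSS1, 46.3 kb from CST7, with 20.5 CPM in DKO and 4.01 CPM in sgControl, and at GABPB1-AS1, 89.0 kb from HDC, with 41.2 CPM in DKO and 7.45 CPM in sgControl. Another 5 neighbours (CCDC88C, PELI3, RBM4, GABPB1-IT1 and TUG1) had log2 ratios of 1.26 to 1.69. EPHB6, 0.114 kb from TRPV6, had 9.41 CPM in DKO and 6.56 CPM in sgControl, with all DKO libraries above all sgControl ones. In 9 of the 35 neighbours all DKO libraries were below all sgControl libraries, against 4323 of 13637 such rows over the genome. Among the 9 was SLC27A2, 5.56 kb from HDC, with 12.3 CPM in DKO and 18.8 CPM in sgControl.

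**Figure D3:**
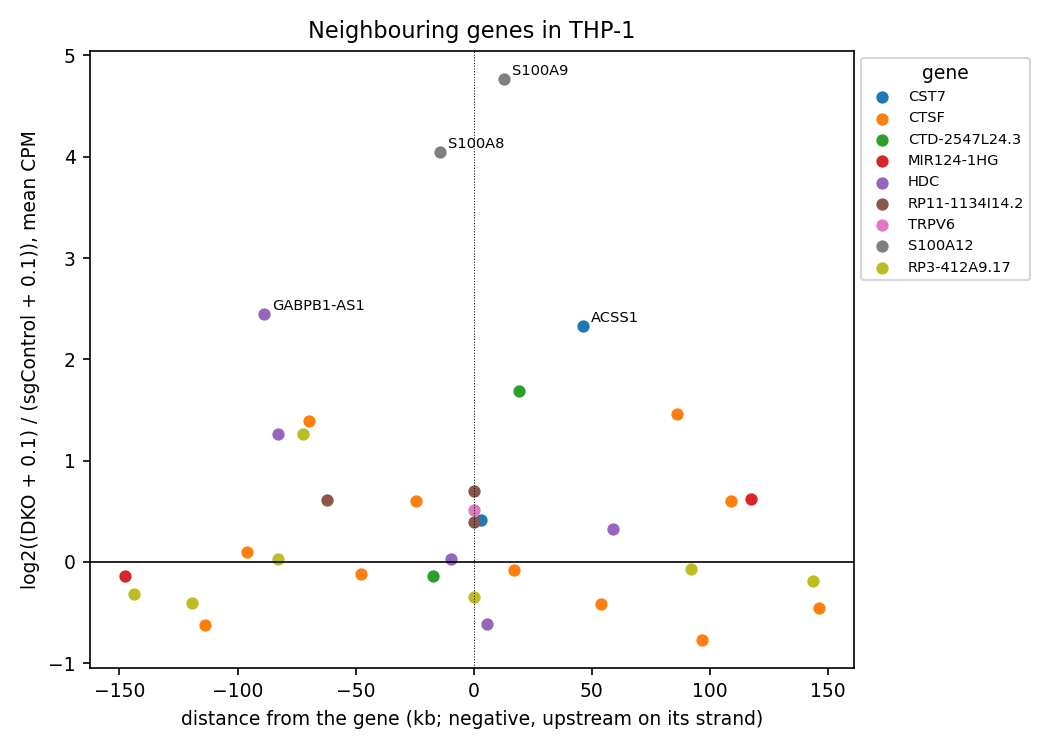
Log2 ratio of mean CPM in THP-1 DKO over sgControl, 0.1 CPM added to each, for 35 rows within 150 kb of the 9 genes, against distance in kb on the strand of the gene named by colour. Most rows lie between -1 and 2, and those above 2 are S100A9, S100A8, GABPB1-AS1 and ACSS1.

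In the other lines, part of the 9 genes was already on without any knockout. By the same limits, 5 of them (CST7, CTSF, CTD-2547L24.3, MIR124-1HG and HDC), or 55.6%, were on in at least 1 of the other 4 sgControl groups, against 250 of 35034 other silent rows, or 0.714%. These shares are not of like rows, since the 9 genes were chosen for reaching 1 CPM in THP-1 DKO. Of the 9, 55.6% were protein-coding, with a median exon length of 3895 bases. Of silent rows, 11.1% were protein-coding, with a median of 607 bases. The gap between the shares is therefore not read further. The 4 that were on in no other control group were S100A12, TRPV6, RP11-1134I14.2 and RP3-412A9.17. Over the 11 groups other than THP-1 DKO and sgControl, which make 99 pairs of gene and group, 25 pairs were on and 48 silent.

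CST7 was on in all 11 groups and was highest in untreated U937. U937 libraries labelled DKO averaged 1514 ± 36.6 CPM, SKO averaged 888 ± 10.9 CPM and sgControl 571 ± 27.8 CPM (SD, n = 3 each). Among the other controls, counted in a second table, MOLM-13 had 363 ± 7.90 CPM and OCI-AML-3 40.5 ± 0.0450 CPM (SD, n = 2 each), and U937 under TPA had 164 ± 4.74 CPM (SD, n = 3). THP-1 DKO, at 13.2 ± 0.961 CPM, thus stayed below every control group of another line.

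RP11-1134I14.2 and RP3-412A9.17 were silent in 10 of the 11 groups, all but THP-1 SKO. TRPV6 was silent in 8, and its highest level outside THP-1 was in TPA-treated U937 DKO, at 0.210, 0.169 and 0.0785 CPM against 0.0502, 0.0491 and 0.0278 CPM in TPA-treated sgControl. Those 2 groups did not overlap, but the gene was below the expression filter there and was not tested. RP11-1134I14.2 had 0 reads in every library outside THP-1, and RP3-412A9.17 had reads in 1 such library, 2 reads in TPA-treated U937 SKO.

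**Figure D4:**
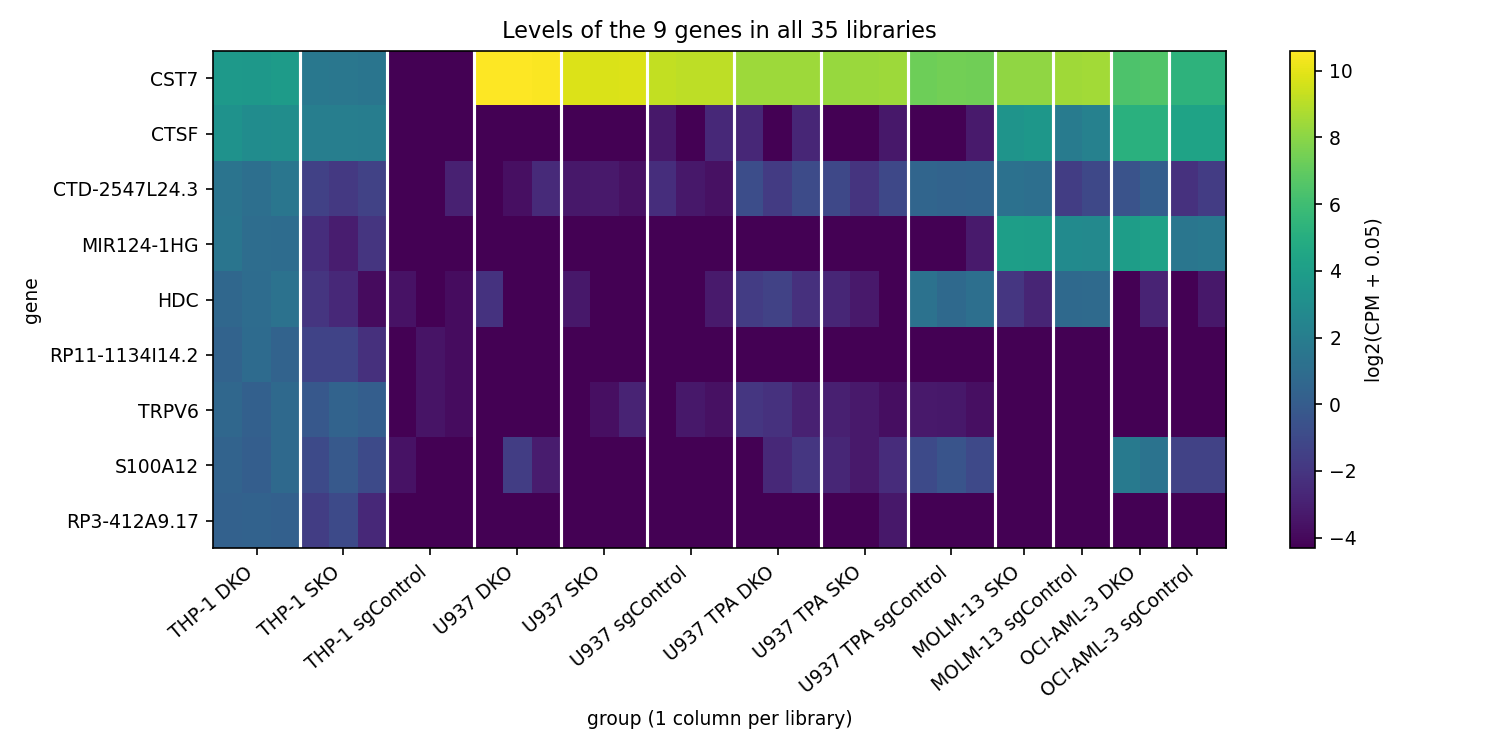
Levels of the 9 genes as log2(CPM + 0.05), by colour, in all 35 libraries, with groups in the order DKO, SKO, sgControl within each line and treatment. CST7 is read in every library outside THP-1 sgControl, CTSF and MIR124-1HG are read in MOLM-13 and OCI-AML-3, and the rows of RP11-1134I14.2 and RP3-412A9.17 are dark outside THP-1.

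None of the 9 genes was switched on from silence in another line. The same rule, applied to each line with its own control, gave 25 genes in U937 DKO, 10 in U937 SKO, 58 in TPA-treated U937 DKO, 17 in TPA-treated U937 SKO, 12 in MOLM-13 SKO and 2 in OCI-AML-3 DKO, and none of the 9 was in any of these lists. The THP-1 DKO list and the U937 DKO list shared 0 genes, 0% of each. Only a gene silent in the line's own control can enter such a list, and 6 of the 9 were silent in U937 sgControl. In U937 DKO 0.0656% of the silent rows were switched on, so a shared gene was unlikely and its absence is not informative.

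The knockout comparisons in the other lines did not enter the choice of genes and were tested. Of the 9, those passing the expression filter were 1 in untreated U937, 4 in TPA-treated U937, and 5 each in MOLM-13 and OCI-AML-3. Some passed only through the group where they were high, so the counts of calls describe those genes and support no statement on all 9. Every test quoted is edgeR's quasi-likelihood test over all genes of the line, with Benjamini-Hochberg adjustment.

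In OCI-AML-3, the 5 tested genes were all called higher in DKO, where 24.3% of 16175 genes were called higher and 25.6% lower. S100A12 had 3.29 and 2.54 CPM in DKO, against 0.330 and 0.333 CPM in sgControl, a log2 fold change of 3.13 ± 0.32 (SE, edgeR adjusted p = 8.0e-12). MIR124-1HG had 15.9 and 18.8 CPM in DKO, against 2.81 and 3.14 CPM in sgControl, a log2 fold change of 2.55 ± 0.13 (edgeR adjusted p = 3.6e-22). In OCI-AML-3, these had the largest folds of the 5.

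CTD-2547L24.3 had 0.650 and 1.05 CPM in OCI-AML-3 DKO, against 0.165 and 0.262 CPM in sgControl (log2 fold change 1.99 ± 0.51, edgeR adjusted p = 0.0011). This call was lost without DKO replicate 2, at 1.60 with an edgeR adjusted p of 0.10. CST7 had 86.1 and 92.9 CPM in DKO, against 40.5 and 40.5 CPM in sgControl (1.15 ± 0.07, edgeR adjusted p = 1.4e-20). CTSF had 35.2 and 34.9 CPM in DKO, against 20.0 and 19.9 CPM in sgControl (0.82 ± 0.08, edgeR adjusted p = 4.7e-12). For all 5 genes the groups of 2 libraries did not overlap. S100A8 and S100A9 averaged 136 and 370 CPM in OCI-AML-3 DKO, against 11.97 and 42.4 CPM in sgControl.

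In MOLM-13, 3 of the 5 tested genes were called higher in SKO and 2 lower, where 31.8% of 15472 genes were called higher and 32.2% lower. CTSF had 10.5 and 12.03 CPM in SKO, against 3.65 and 4.73 CPM in sgControl, a log2 fold change of 1.47 ± 0.13 (edgeR adjusted p = 3.7e-11). MIR124-1HG had 16.7 and 15.5 CPM in SKO, against 7.09 and 6.38 CPM in sgControl (1.32 ± 0.10, edgeR adjusted p = 1.6e-12). CTD-2547L24.3 had 2.33 and 2.14 CPM in SKO, against 0.279 and 0.417 CPM in sgControl (2.71 ± 0.35, edgeR adjusted p = 4.8e-08). The SKO libraries were above both controls for these 3.

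HDC and CST7 were lower in MOLM-13 SKO. HDC had 0.207 and 0.0951 CPM in SKO, against 1.67 and 1.71 CPM in sgControl (log2 fold change -3.42 ± 0.45, edgeR adjusted p = 9.3e-08). CST7 had 278 and 274 CPM in SKO, against 358 and 369 CPM in sgControl, a small but narrowly measured fall (-0.34 ± 0.03, edgeR adjusted p = 4.8e-12). S100A12 had 0 reads in all 4 MOLM-13 libraries, while S100A9 averaged 23.3 CPM in SKO against 6.06 CPM in sgControl.

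In untreated U937, CST7 was the only gene of the 9 that could be tested. It was called higher in DKO than in sgControl, with a log2 fold change of 1.34 ± 0.03 (edgeR adjusted p = 2.7e-23), where 33.2% of 14915 genes were called higher and 34.5% lower. In SKO against sgControl its log2 fold change was 0.66 ± 0.03 (edgeR adjusted p = 4.1e-16), where 30.7% were called higher and 31.2% lower. The 3 groups did not overlap. Of the other 8 genes, 6 in DKO, all 8 in SKO and 6 in sgControl were silent.

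TPA-treated U937 had 1 gene called higher and 3 lower in both knockouts. In DKO against sgControl 34.1% of 16246 genes were called higher and 36.5% lower, and in SKO against sgControl 25.8% were called higher and 24.6% lower. CST7 had 342, 346 and 346 CPM in DKO and 320, 325 and 341 CPM in SKO, against 159, 169 and 165 CPM in sgControl. Its log2 fold change was 1.29 ± 0.03 in DKO (edgeR adjusted p = 2.9e-22) and 1.08 ± 0.03 in SKO (edgeR adjusted p = 7.6e-20). All knockout libraries were above all TPA-treated control libraries.

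HDC ran the other way. It had 0.263, 0.337 and 0.157 CPM in TPA-treated DKO and 0.0992, 0.0527 and 0 CPM in SKO, against 2.46, 1.69 and 2.11 CPM in sgControl. The log2 fold change was -2.82 ± 0.43 in DKO (edgeR adjusted p = 1.6e-06) and -5.23 ± 0.54 in SKO (edgeR adjusted p = 4.9e-09). So in TPA-treated U937 and in MOLM-13 the control made HDC RNA and the knockouts had less, whereas in THP-1 the control was near 0 reads.

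CTD-2547L24.3 had 0.526, 0.253 and 0.471 CPM in TPA-treated DKO and 0.422, 0.184 and 0.418 CPM in SKO, against 1.43, 1.30 and 1.36 CPM in sgControl. It was called lower in DKO (log2 fold change -1.47 ± 0.40, edgeR adjusted p = 0.0019) and in SKO (-1.91 ± 0.41, edgeR adjusted p = 0.00028).

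S100A12 had 0, 0.112 and 0.209 CPM in TPA-treated DKO and 0.0992, 0.0527 and 0.139 CPM in SKO, against 0.452, 0.687 and 0.445 CPM in sgControl. It was called lower in DKO (log2 fold change -2.04 ± 0.68, edgeR adjusted p = 0.0097) and in SKO (-2.32 ± 0.68, edgeR adjusted p = 0.0058). The DKO call was lost without DKO replicate 1, at -1.45 with an edgeR adjusted p of 0.066, and without sgControl replicate 2, at -1.81 with an edgeR adjusted p of 0.059. Its neighbour S100A9 averaged 104 CPM in DKO and 60.8 CPM in SKO, against 100 CPM in sgControl.

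**Figure D5:**
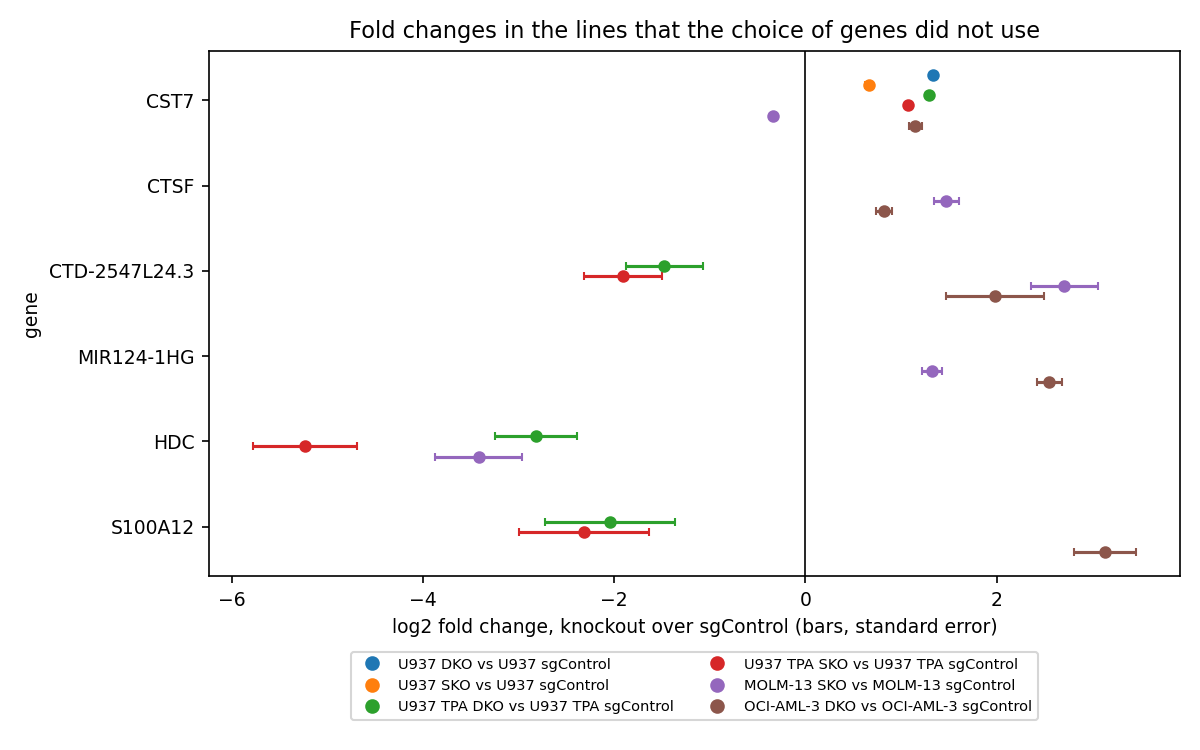
Log2 fold changes, knockout over sgControl, with standard errors as bars (hidden by the point where small), of the genes that passed the expression filter, in the 6 comparisons outside THP-1. CTSF and MIR124-1HG lie right of 0 wherever tested, and HDC, tested only where its control was high, lies left of 0. CST7, CTD-2547L24.3 and S100A12 have points on both sides.

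Across these comparisons, CTSF and MIR124-1HG were called higher in the knockout in 2 of 2 comparisons where they were tested, CST7 in 5 of 6, CTD-2547L24.3 in 2 of 4 and S100A12 in 1 of 3, and HDC was called lower in 3 of 3. HDC passed the expression filter through the controls, where it was high, at 2.09 CPM in TPA-treated U937 and 1.69 CPM in MOLM-13. S100A12 did so in TPA-treated U937, at 0.528 CPM in sgControl. Their falls there were thus favoured by where they could be tested. CTD-2547L24.3 passed in OCI-AML-3 through DKO, where it was high, at 0.847 CPM against 0.213 CPM in sgControl. Its rise there was favoured in the same way. No consistency of direction is read from these tallies. The DKO and SKO comparisons of U937 share their control libraries, so their directions are not separate observations. The libraries of MOLM-13, OCI-AML-3 and U937 under TPA stand in a second deposited table, and each line was tested within its own table and fit.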

How the data were processed

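Gene-level counts of 35 poly(A) RNA-seq libraries in 13 groups were used. The authors deposited raw whole-number counts for each gene. The submitters' processing notes name fastp 0.23.4, STAR 2.7.11b, Subread 2.0.6 and the hg38 build. The table of THP-1 and untreated U937 was counted by gene name against GENCODE 38 and without strand, per the file headers, so reads of a gene and of its antisense partner cannot be told apart. No counting command for the second table, which holds the other libraries, is given in the sources used here. Its rows have the same coordinates and lengths.

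Levels were computed here as CPM, counts scaled to the library total, and RPKM, CPM per kilobase of the exon length in the table. Totals ranged from 31985767 to 61178704 counted reads. On, silent and switched on used the limits of at least 1 CPM in every library and at most 5 reads over the group. Ratios carry exact 95% intervals from counting, and a group at 0 reads was set at a floor of 3 reads. Tests used edgeR 4.0.16 in R 4.3.3, with its default expression filter, TMM scaling and the quasi-likelihood test and a Benjamini-Hochberg threshold of 0.05. All groups of a line under the same treatment entered 1 fit without covariates. The procedure was tested on simulated data.

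The 9 genes, the gene lists and the rule for named genes were chosen with earlier results of these data known. The rule names SUV39H1, SUV39H2, the members by level, list, test and position, and the genes nearest inside and outside the limits, which takes in all 9 here. Neighbouring and related genes were named after their values were seen. A gene near the members and a gene of the marker lists are not reported here and enter no count of neighbours or markers. Gene types came from RefSeq, and from GENCODE 29 by equal coordinates for rows without a RefSeq entry. Motifs in promoters were sought by exact letters. All 31 replicate pairs of a group differed by more than sampling noise, with chi-square per degree of freedom from 2.97 to 11.7. Replicate numbers come from the labels, and deviations of same-numbered libraries correlated between -0.0377 and 0.0584, so they were not treated as pairs. Alternatives were other limits of the rule, DESeq2 1.42.0 as scaling or test, no expression filter, a replicate block, only the compared groups, and each library left out.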

Additional observations from a re-analysis of the deposited data

Results flagged for a closer look

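Opposite moves without overlap of libraries marked the following for a closer look. The differences between lines were not tested. In the libraries labelled DKO against sgControl, CTD-2547L24.3 had a log2 fold change of 1.99 in OCI-AML-3 and -1.47 in TPA-treated U937. In the same contrast, S100A12 had 3.13 in OCI-AML-3 and -2.04 in TPA-treated U937. In SKO against sgControl, CTD-2547L24.3 had 2.71 in MOLM-13 and -1.91 in TPA-treated U937. CST7 in SKO against sgControl had 0.66 in untreated U937 and 1.08 in TPA-treated U937, against -0.34 in MOLM-13. The control level of CST7 was 363 CPM in MOLM-13, 571 CPM in untreated U937 and 164 CPM in TPA-treated U937.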

How the results depend on the processing

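The number of genes depended on the limits: 4 at 0 reads in sgControl, 26 at up to 10 reads, 26 at 0.5 CPM in DKO, 3 at 2 CPM and 8 under TMM scaling, which lost S100A12. Leaving out 1 THP-1 library gave 9 to 25 genes. All 9 were among them by construction, since limits over fewer libraries can only be looser. The number of silent pairs of gene and group, 48, became 20 with the stricter control limit and 6 at 2 CPM, since fewer genes entered. With 1 library left out it was 48 to 50, and that of pairs that were on was 25 to 26. The share of genes near another was 0% at all 3 windows. Of 212 recomputed log2 fold changes, 209 kept direction and call, 3 kept direction and lost the call (given above) and 0 reversed. With 1 library left out, genes called lower in TPA-treated U937 DKO numbered 2 to 3, and genes called higher in OCI-AML-3 DKO 4 to 5. Where a group of 2 lost a library, the lone one was assumed to vary like the others. The heterochromatin genes called numbered 9 to 11 higher and 22 to 23 lower. With the replicate number as a block, the calls stayed at 1 higher in each untreated U937 knockout, 1 higher and 3 lower in each TPA-treated one, 3 higher and 2 lower in MOLM-13 and 5 higher in OCI-AML-3. Genes under about 0.1 CPM rest on a few reads.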
